A study of Mus musculus with 48 samples.

Results

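The duodenum of newborn mice was compared with the duodenum at day 2 after birth. The samples were chosen by their labels, 3 of day 0 and 3 of day 2, which is 6 of the 48 samples of a series on the first weeks of the mouse small intestine. All were pieces of about 2 cm taken next to the stomach outlet from C57Bl/6J mice, with no treatment and no altered gene, and the whole thickness of the wall was used. The ileum at the same ages, 3 samples each, served to ask which changes were shared along the gut.

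At birth the mouse duodenum changes from swallowing amniotic fluid to digesting milk. Its villi already carry enterocytes, but crypts, the pockets that hold stem cells in the adult, are still shallow zones between villi, and Paneth cells are not yet formed. Glucocorticoid hormones are known to be high around birth and to fall in the days after it. The pieces contain epithelium, muscle, nerves, blood vessels and blood, so a lower value in such bulk tissue can mean fewer cells of a type or less RNA per cell, and these cannot be told apart.

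The labels say that both sexes were used, that a litter usually gave 2 or 3 ages, and that housing was standard germ-free; whether the mice were germ-free or free of specific pathogens could not be settled. Day 0 and day 2 are different mice, and nothing says whether the 3 samples of an age came from separate animals or litters. The p-values come from a model of all 48 samples, so they measure a spread between samples pooled over both regions and all ages. That spread may be partly technical.

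Some of the 6 libraries stand apart. Day 0 numbers 2 and 3 contained both Xist, the RNA of the inactive X chromosome, at 744.5 and 813 CPM (counts of a gene per megacount of its library, scaled between libraries), and the Y-linked Ddx3y at 21.1 and 25 CPM. The other 4 libraries had one or the other: day 0 number 1 and day 2 numbers 2 and 3 had Ddx3y at 45.6 to 66.5 CPM with Xist at 3.02 to 4.19, and day 2 number 1 had Xist at 1082 CPM with Ddx3y at 0.0286. Mitochondrial transcripts took 17.3%, 22.95% and 29.8% of the counts at day 0 and 18.1%, 18.2% and 16.7% at day 2. Markers of pancreatic acinar cells summed to 984 CPM in day 2 number 1 against 50.3 to 124 CPM in the other 5 libraries, and markers of stomach to 129 CPM in day 2 number 2 against 13.8 to 37.5 CPM. The enterocyte markers, which check the tissue, summed to between 14850 and 16720 CPM in all 6. The Spearman correlation over genes was 0.964 to 0.972 between samples of different ages, 0.977 to 0.989 within day 0 and 0.992 to 0.996 within day 2, and genes are not independent replicates. In a principal component analysis of the 6 samples the first component, with 62.7% of the variance, separated the ages, and the other, with 21.8%, spread the day 0 samples from 22.3 to -25.3 while the day 2 samples stayed between -2.19 and 0.791.

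Between day 0 and day 2, 869 of 20901 genes tested (4.16%) passed an adjusted p of 0.05 in edgeR's quasi-likelihood test, in a model of all 48 samples with Benjamini-Hochberg adjustment, and are called here. Of these, 409 (1.96%) rose and 460 (2.2%) fell, and 272 rises and 248 falls were over 2-fold. The 3 values of a gene did not overlap between the ages for 858 of the 869, and they did not overlap for 36.4% of all genes tested. The median log2 change of all genes was -0.004. When the model left out the 8 samples that the authors' normalized tables do not hold (all of day 4, and number 3 of day 6, in both regions), 2606 of the same 20901 genes were called (12.5%), 1192 up (5.7%) and 1414 down (6.77%), and all 869 were among them. That model was fitted because some samples outside the compared groups go against their labels or stand apart. The counts of gene lists below are given in both models. Each is to be read beside the share of all genes called in the same model, 4.16% or 12.5%. With day 0 numbers 2 and 3 left out, which leaves day 0 with 1 sample that is assumed to vary like the other groups, 62 genes were called in the model of the other samples, and 616 when the 8 samples were left out as well. Leaving out day 0 number 2 gave 336 calls, and leaving out day 0 number 1 gave 603, with the other 4 libraries in between. Of 118 called genes that the rule for named genes picked, 46 stayed called whichever of the 6 libraries was left out, 16 stayed called without day 0 numbers 2 and 3, and 60 did when the 8 samples were left out too.

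The largest falls were of genes of lipid desaturation, of glucocorticoid response and of blood or liver proteins, and the largest rises were of genes of the intestinal epithelium. Scd2, a desaturase that puts a double bond into fatty acids, was at 567, 776 and 666 CPM at day 0 and at 14.2, 12.6 and 12.8 CPM at day 2. The day 0 samples lay about 50.7-fold higher by their means, and no other gene at a mean of at least 2 CPM that met the rule for named genes fell as far. Its log2 change was -5.66 ± 0.98 (standard error, n = 3 per age) with an adjusted p of 0.00051 in edgeR. Scd1, which carries out the same step, fell from 34.6, 53.1 and 39.5 CPM to 2.23, 2.42 and 2.12 CPM (log2 -4.23 ± 0.68, edgeR adjusted p 0.000227). Both kept their call under each of 19 alternatives. Scd1 and Scd2 are close relatives, so the split of reads between them depends on the authors' estimation.

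Other falls of this size included Pde6a, a phosphodiesterase best known from rod photoreceptors, from 21.2, 20.4 and 8.32 CPM to 0.400, 0.677 and 0.282 (log2 -5.18 ± 0.67). Bcl2l15, a relative of the BCL2 family, went from 8.94, 7.30 and 1.97 CPM to 0.200, 0.246 and 0.0605 (log2 -5.15 ± 1.08), and Alpk3, an alpha-kinase, fell by 4.14 ± 0.68 on the log2 scale. None of these had overlapping samples, and all 3 were called with any 1 library left out.

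Among the rises, Aqp8, a water channel of the gut surface, was at 3.50, 9.13 and 13.7 CPM at day 0 and at 99.3, 69.7 and 87.9 CPM at day 2. All 3 day 2 samples lay above all day 0 samples, with a log2 change of 3.28 ± 0.57 and an edgeR adjusted p of 0.00051. Sucnr1, the receptor for succinate, rose from 0.333, 1.00 and 0.565 CPM to 13, 6.06 and 9.07 CPM (log2 3.92 ± 0.67). Itln1, an intelectin that binds microbial sugars, rose from 0.917, 2.6 and 3.99 CPM to 20.7, 17.8 and 16.5 CPM (log2 2.85 ± 0.47, edgeR adjusted p 0.000302). Lypd8l, at 3.69, 8.76 and 17.4 CPM at day 0, reached 112, 90.8 and 84.1 CPM (log2 3.25 ± 0.90), but lost its call when any 1 of the 6 libraries was left out.

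Gsdmc4 and Gsdmc3, gasdermins of the gut epithelium, rose by 3.16 ± 0.48 and 3.05 ± 0.57 on the log2 scale. They are near-identical genes whose separate values are uncertain. Apol7c, an apolipoprotein L, rose by 2.58 ± 0.49, and Cyp3a25, a steroid and drug oxidase, by 2.85 ± 0.41. Day 0 and day 2 samples did not overlap for any of these genes, and each kept its call with any 1 library left out.

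**Figure D1:**
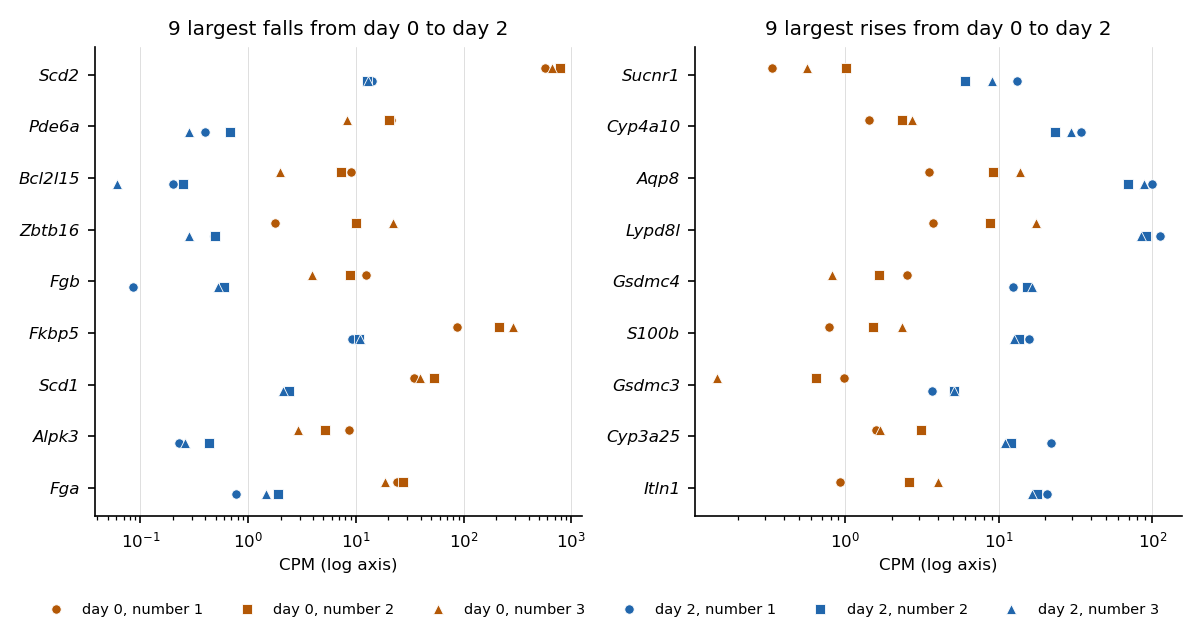
CPM on a log axis (x) of the 9 largest falls and 9 largest rises that met the rule for named genes (y), each sample a point, orange for day 0 and blue for day 2, with the marker shape giving the sample number. The ages do not overlap for any gene shown, and the day 0 samples spread more widely than those of day 2 for genes such as Zbtb16, from 1.78 to 22.0 CPM.

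Ranked by CPM instead of fold, the largest falls were in mt-Rnr2 and mt-Rnr1, the mitochondrial ribosomal RNAs, H19, Gm43305, a predicted gene, and Mgam. mt-Rnr2 was at 9939, 17060 and 19590 CPM at day 0 and at 6130, 5201 and 4432 CPM at day 2 (log2 -1.56 ± 0.27). Among the 15 mitochondrially encoded genes tested these 2 fell and none rose. The 13 protein-coding ones had log2 changes between -0.80 and -0.45 and were not called, and 4 of the 15 fell without the 8 samples. These values move with the mitochondrial share of the libraries given above, whose part in the result was not tested.

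The largest rises in CPM were Gda, guanine deaminase, Paqr9, Gatm, App, the amyloid precursor protein, and Xdh, xanthine dehydrogenase, which with Gda degrades purines. Gda went from 669, 632 and 570 CPM to 1421, 1346 and 1191 (log2 1.08 ± 0.26), and Xdh from 225, 202 and 191 CPM to 456, 401 and 463 (log2 1.10 ± 0.28). Paqr9, a membrane receptor of the PAQR family, rose from 192, 140 and 141 CPM to 537, 603 and 519 (log2 1.81 ± 0.36), and was called with any 1 library left out, whereas App (log2 0.75 ± 0.20) was not called without any 1 of the 6 and Xdh was lost without day 0 number 2 or 3 or day 2 number 1 or 3. Gda was lost without day 0 number 2 or 3 or day 2 number 1, with adjusted p-values up to 0.062 in edgeR.

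Some genes that respond to glucocorticoid hormone were lower at day 2. Of 18 genes of this list tested, 6 fell and none rose, against 2.2% of all genes falling, and without the 8 samples 8 fell and none rose, against 6.77%. The median log2 change of the 18 was -0.57. The list summed to 1077, 1319 and 1545 CPM at day 0 and to 637 to 662 CPM at day 2. Day 0 number 1 was the lowest and number 3 the highest of its age in this sum, as in the sums of red blood cell markers (797, 1629 and 3092 CPM) and neutrophil markers (17.6, 33.0 and 63.4 CPM) and in the mitochondrial share of counts given above. This order of the day 0 samples was found in 243 of the 869 called genes. It was not counted over all genes tested, so the number cannot be judged as high or low. The part of these differences among the day 0 samples in the result was not tested. The hormone enters the cell and binds the glucocorticoid receptor, which then attaches to DNA at inverted repeats of the letters TGTTCT. The receptor gene itself, Nr3c1, had a log2 change of 0.07 and was not called.

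Fkbp5, a chaperone of the receptor that the receptor induces, was at 86.1, 214 and 285.5 CPM at day 0 and at 9.29, 10.8 and 10.9 CPM at day 2. The day 0 samples differed among themselves by more than the whole range at day 2, and the ages did not overlap. Its log2 change was -4.24 ± 0.41, with an adjusted p of 1.7e-08 in edgeR, and it kept its call in all 19 alternatives. Zbtb16, a zinc finger repressor, fell from 1.78, 9.99 and 22.0 CPM to 0.486, 0.493 and 0.282 CPM (log2 -4.74 ± 0.86, edgeR adjusted p 0.000668). Without day 0 numbers 2 and 3 its log2 change was -2.07 and it was not called, with edgeR adjusted p-values of 0.584 in the model of the other samples and 0.303 without the 8 samples too.

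Tsc22d3, which encodes the leucine zipper protein GILZ, fell from 96.9, 118 and 138 CPM to 51.7, 45.7 and 53.0 CPM (log2 -1.23 ± 0.24). Klf15, a regulator of metabolism, was at 0.401 CPM or less in every sample and Lcn2, a neutrophil and epithelial protein, at 3.04 or less; both were called lower at day 2 and both lost the call without day 0 number 3, Klf15 also without any 1 of the day 2 samples. Mt1, Mt2, Dusp1, Per1 and Cdkn1a, which the hormone can also induce, had log2 changes between -0.70 and -0.40 and were not called, and Ddit4 had 0.74. The count of falls in the list was 4 without day 0 number 3 and 5 or 6 without any other 1 library. With day 0 number 1 alone at day 0 and without the 8 samples, 2 of the 18 fell and 1 rose.

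Sgk1, a kinase that regulates sodium uptake, was at 341, 464 and 466 CPM at day 0 and at 102, 133 and 122 CPM at day 2. The ages did not overlap (log2 -1.83 ± 0.35, edgeR adjusted p 0.00113). It was the one member of the list with the full receptor motif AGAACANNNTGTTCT, searched on both strands, in the 250 bases before a RefSeq start. That motif lay before 3 of 32851 listed mouse starts (0.00913%) and in 2 of 13644 tested genes that have one (0.0147%), and it was in 1 of the 15 tested members with an entry. In Sgk1 it lies 189 bases before the fifth of 6 listed starts, in chr10:21993640-21993889 on the plus strand of GRCm38.p6. The sequence is shown because it is this rare match, and capitals mark the motif.
Sgk1: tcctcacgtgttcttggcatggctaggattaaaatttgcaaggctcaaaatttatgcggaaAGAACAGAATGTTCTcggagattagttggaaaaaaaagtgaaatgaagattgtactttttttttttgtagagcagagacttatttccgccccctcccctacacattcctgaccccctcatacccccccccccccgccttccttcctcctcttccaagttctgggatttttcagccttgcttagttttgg
The match is a description of these letters and no evidence of binding, and the counts per gene do not say which start was used.

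Some genes of cholesterol synthesis were lower at day 2. The pathway builds sterol from acetyl-CoA by way of mevalonate and squalene, and the factor SREBP2 turns its genes on together when sterol is short. Of 25 genes of synthesis and uptake tested, 8 fell and none rose, against 2.2% of all genes falling. Without the 8 samples 11 fell and none rose, against 6.77%. The median log2 change was -0.51, and 23 of the 25 had a log2 change below 0.

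The called members run along the pathway. Fdps, which makes farnesyl diphosphate, went from 66.9, 71.1 and 47.0 CPM to 28.6, 21.8 and 21.2 CPM (log2 -1.37 ± 0.27, edgeR adjusted p 0.00172). Fdft1, squalene synthase, went from 41.6, 42.2 and 45.8 CPM to 23, 21.2 and 21.1 CPM (log2 -0.99 ± 0.22). In both genes the lowest day 0 sample was well above the highest day 2 sample.

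Lss, which closes the sterol ring, fell by 1.08 ± 0.27 on the log2 scale, and the later enzymes Cyp51, Msmo1, Hsd17b7 and Dhcr7 fell by 0.86, 0.96, 0.93 and 0.74. Other enzymes of the pathway had smaller changes and were not called, with Sqle, squalene epoxidase, at -0.58 and Hmgcs1, an early enzyme, at -0.24. Fdps and Fdft1 kept their call with any 1 library left out, and the number of calls in the list ran from 3, without day 0 number 2 or day 2 number 3, to 7, without day 2 number 1. With day 0 number 1 alone and without the 8 samples, 3 fell.

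The promoters of these genes share the CCAAT box, the site of the factor NF-Y. In the 250 bases before a start, CCAAT on either strand was present in all 17 tested members that have a RefSeq entry, against 39.6% of 13644 tested genes and 33.8% of 32851 starts. A gene with several starts has more chances to hold it. The 17 include members that were not called, so the box does not separate the called ones. The sterol motif TCACNCCAC was in 1 of the 17, Hmgcs1, against 1.28% of tested genes. Windows of 25 bases around the box nearest the start are shown for the 5 called members that have an entry, 5′ to 3′ on the strand of the gene, with the box, or its reverse form ATTGG, in capitals.
Cyp51: ctgtccgccaCCAATctggtcctga
Lss: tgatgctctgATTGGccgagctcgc
Msmo1: gtggggcggaCCAATtacgacaggc
Hsd17b7: ccgagtcgcgATTGGcgggcctaac
Dhcr7: tccacttccgATTGGtcgtctgtga
They lie at chr5:4104712-4104736, chr10:76531533-76531557, chr8:64733619-64733643, chr1:169969264-169969288 and chr7:143830155-143830179 of GRCm38.p6, in that order. Cyp51, Msmo1 and Hsd17b7 are on the minus strand, and for Dhcr7 the third of 3 listed starts was used.

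**Figure D2:**
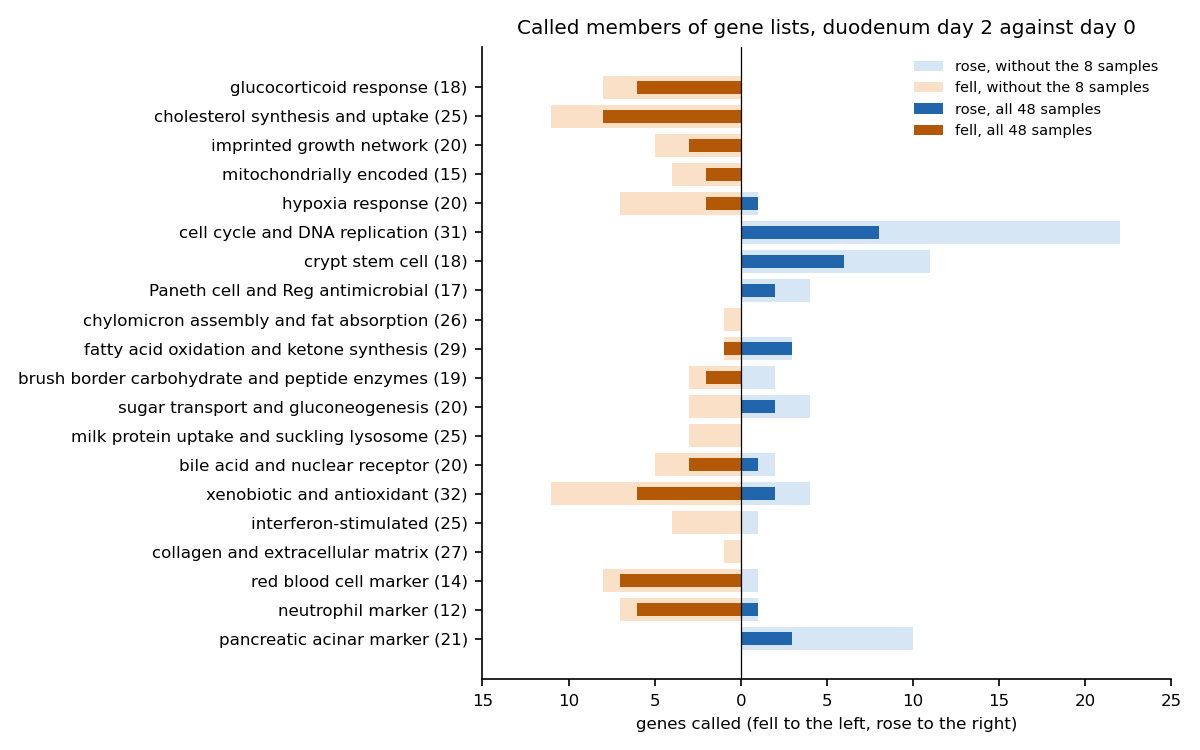
Number of genes called (x, fell to the left and rose to the right) in 20 of the 50 gene lists (y, with the number of genes tested), dark bars for the model of all 48 samples and pale bars for the model without the 8 samples. Cholesterol synthesis and glucocorticoid response have falls and no rise, with 8 and 6 in the dark bars, and cell cycle and crypt stem cell have rises and no fall, with 8 and 6. Of all genes tested, 2.2% fell and 1.96% rose with all 48 samples, and 6.77% and 5.7% without the 8 samples.

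Some genes of DNA replication and of the crypt rose. Of 31 cell cycle genes tested, 8 rose and none fell, against 1.96% of all genes rising, and without the 8 samples 22 rose and none fell, against 5.7%. The median log2 change was 0.79. Of the called genes, Mcm3 and Mcm5 belong to the helicase that opens DNA, Cdc6 loads it, Ccne1 and E2f1 drive entry into S phase, Tyms and Tk1 make thymidine nucleotides, and Top2a untangles the copies.

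Mcm5 went from 13.9, 9.81 and 13.4 CPM to 34.2, 42.5 and 39.6 CPM (log2 1.64 ± 0.44, edgeR adjusted p 0.0239), and Top2a from 83.4, 76.7 and 95.2 CPM to 193, 213 and 223 CPM (log2 1.3 ± 0.37). Neither overlapped between ages. Ccnb1, Cdc20 and Plk1, which act in mitosis, had log2 changes of 0.52, 0.52 and 0.65 and were not called with all 48 samples, and Plk1 alone of them was called without the 8 samples. Each of the 8 calls was lost without day 0 number 2, and between 0 and 3 remained whichever library was left out, with edgeR adjusted p-values for Mcm5 between 0.06 and 0.14. With day 0 number 1 alone and without the 8 samples, 4 rose.

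E2F factors bind motifs such as TTTCGCGC and TTTGGCGC. One of these, on either strand, lay before a start of 3 of 25 tested cell cycle genes with an entry, Cdk1, Mcm5 and Mcm6, against 1.23% of tested genes. Mcm5 is the called one of the 3, and its 250 bases before the start, chr8:75109259-75109508 on the plus strand of GRCm38.p6, are shown with the motif and its overlapping reverse match, 153 and 149 bases before the start, and a pair of CCAAT boxes in capitals.
Mcm5: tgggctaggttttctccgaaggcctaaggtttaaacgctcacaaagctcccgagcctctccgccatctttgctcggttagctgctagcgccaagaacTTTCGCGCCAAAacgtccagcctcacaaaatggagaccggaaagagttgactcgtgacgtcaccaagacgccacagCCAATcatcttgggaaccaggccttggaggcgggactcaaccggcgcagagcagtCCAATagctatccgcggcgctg
The CCAAT box was present in 18 of the 25 (72%), and in 3 of the 8 called.

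Of 18 crypt stem cell genes tested, 6 rose and none fell, against 1.96% of all genes rising. Without the 8 samples 11 rose, against 5.7%. Many genes of this list are targets of Wnt signalling, which keeps crypt cells dividing. Ascl2, the transcription factor that sets stem cell identity, was at 0.222, 0.274 and 0.510 CPM at day 0 and at 2.83, 3.26 and 3.67 CPM at day 2. This was the largest rise of the list (log2 3.20 ± 0.50, edgeR adjusted p 0.000124). Axin2, a feedback inhibitor in the Wnt pathway, went from 13.1, 13 and 13.4 CPM to 33.5, 34.5 and 35.8 CPM, with hardly any spread within an age (log2 1.39 ± 0.23).

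Ephb2, a receptor that positions crypt cells, rose by 1.32 ± 0.27, Cdca7 by 1.52 ± 0.42, Sox9 by 0.99 ± 0.26 and Msi1 by 1.02 ± 0.30. Lgr5, the defining marker of these stem cells, had a log2 change of 0.97 and Olfm4 of 1.42, and both were called without the 8 samples alone. Bmi1 and Hopx, markers of a slower cycling population, were at -0.18 and 0.25. Ascl2, Axin2 and Ephb2 kept their call with any 1 library left out, and the other 3 were lost under most of these. With day 0 number 1 alone and without the 8 samples, 9 rose.

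Few genes of milk digestion and absorption were called, and few of all genes tested were (4.16%). Lct, the lactase of the brush border, was at 2773, 2255 and 2015 CPM at day 0 and at 2994, 2613 and 2793 CPM at day 2, and was not called (log2 0.25). Of 26 genes of fat absorption and chylomicron assembly tested, none was called, and without the 8 samples 1 fell, Agpat2. Apob and Mttp, which build chylomicrons, had log2 changes of 0.06 and -0.11, and Fabp1 and Fabp2, which carry fatty acids, of -0.10 and 0.08.

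Among 19 brush border enzymes, 2 fell and none rose, and without the 8 samples 3 fell and 2 rose. Mgam, maltase-glucoamylase, which digests starch, went from 963, 1204 and 1003 CPM to 330, 321 and 330.5 CPM (log2 -1.69 ± 0.28, edgeR adjusted p 0.000317). The day 2 samples were within 10 CPM of each other and far below day 0. Ggt1, which splits glutathione, fell by 1.15 ± 0.30 and lost its call without day 0 number 2 or 3 or day 2 number 2 or 3. Sis, sucrase-isomaltase, had a log2 change of -0.04, and Tmprss15, the enteropeptidase that activates trypsin, of 3.10, called without the 8 samples alone.

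Sugar transport and gluconeogenesis had 2 rises, Fbp1 at 0.96 ± 0.29 and Pck2 at 0.84 ± 0.25 on the log2 scale, among 20 genes, and neither stayed called with any 1 library left out; without the 8 samples 4 rose and 3 fell. Among 18 carriers of amino acids and peptides, Slc7a15 fell from 7.17, 13.6 and 17.4 CPM to 2.49, 1.46 and 2.18 CPM (log2 -2.65 ± 0.54), and no other was called; without the 8 samples 3 fell. None of 25 genes of milk protein uptake and the suckling lysosome was called, and Fcgrt, the receptor that carries maternal antibody across the epithelium, had a log2 change of 0.70; without the 8 samples 3 fell. None of 18 genes of iron, calcium and trace metal absorption was called, and without the 8 samples 2 rose.

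Amino acid and fat metabolism had single large changes. Prodh, proline dehydrogenase, the first step of proline breakdown, was at 55.9, 56.7 and 51.1 CPM at day 0 and at 8.43, 10.5 and 11.3 CPM at day 2. It fell by 2.44 ± 0.27 with an edgeR adjusted p of 3.3e-07, and kept its call under all 19 alternatives. It was the only call among 16 genes of arginine, citrulline and polyamine synthesis, where 4 fell and 1 rose without the 8 samples. Gatm, which makes the creatine precursor guanidinoacetate from arginine, rose from 112, 168 and 208 CPM to 565, 399.5 and 454 CPM (log2 1.54 ± 0.35), with an adjusted p of 0.059 without day 0 number 1.

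Of 29 genes of fatty acid oxidation and ketone synthesis, 3 rose and 1 fell, and without the 8 samples the counts were again 3 and 1. Acaa1b, a thiolase of the peroxisome, went from 4.56, 5.84 and 8.98 CPM to 26.6, 18.6 and 22.6 CPM (log2 1.80 ± 0.37). Cyp4a10, which oxidises the end of fatty acid chains, went from 1.42, 2.33 and 2.71 CPM to 34.2, 23.2 and 29.3 CPM (log2 3.74 ± 1.00), and lost its call without any 1 library except day 2 number 2. Its near-identical relative Cyp4a31 was at 0 in the day 0 libraries and at 0.200 CPM or less at day 2, and lost its call without any 1 library. Ppara, the receptor that controls these genes, fell by 0.95 ± 0.21, lost without day 0 number 3 or day 2 number 2.

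Detoxification genes moved in both directions. Of 32 genes tested, 6 fell and 2 rose, against 2.2% and 1.96% of all genes. Without the 8 samples 11 fell and 4 rose, against 6.77% and 5.7%. Cyp3a25 rose from 1.58, 3.10 and 1.68 CPM to 21.8, 12.1 and 10.9 CPM (log2 2.85 ± 0.41, edgeR adjusted p 3.6e-05). Gclc, the catalytic subunit of glutathione synthesis, fell from 125, 72.3 and 43.8 CPM to 24.5, 30.1 and 23.5 CPM (log2 -1.63 ± 0.29). The ages did not overlap for either.

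Akr1b7, an aldose reductase, was at 11.3, 41.0 and 69.6 CPM at day 0 and at 4.2, 2.2 and 3.55 CPM at day 2 (log2 -3.62 ± 0.68). The glutathione transferases Gsta1 and Gsta4 fell by 2.46 and 1.52, Abcb1a, a drug efflux pump, by 1.27, and the glucuronosyltransferase Ugt2b34 by 0.80, while Ugt1a1, which conjugates bilirubin, rose by 0.85 ± 0.23. Gclc, Gsta1, Akr1b7 and Cyp3a25 kept their call with any 1 library left out. Without day 0 numbers 2 and 3 the log2 change of Akr1b7 was -1.76 and it was not called, with edgeR adjusted p-values of 0.57 and, without the 8 samples too, 0.208. Abcb1a was lost without day 0 number 1, Ugt1a1 without any 1 library, and the others without several. With day 0 number 1 alone and without the 8 samples, 4 fell and 2 rose.

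Among 20 genes of bile acids and nuclear receptors, 3 fell and 1 rose, and without the 8 samples 5 fell and 2 rose. Fabp6, the bile acid carrier of the ileum, was at 4.75, 4.65 and 1.55 CPM at day 0 and at 0, 0.0616 and 0.0202 CPM at day 2 (log2 -6.74 ± 1.68), and it was also the 1 fall among 9 distal intestine markers. Slc51b, a bile acid exporter, fell by 0.95 and Nr1i2, the xenobiotic receptor PXR, by 0.67, and Hnf4a, a factor of the mature enterocyte, rose by 0.66 ± 0.18. Each of these 4 calls was lost without at least 3 of the 6 libraries in turn. Without the 8 samples 2 distal markers fell. None of 10 proximal markers was called, with 1 fall without the 8 samples, and of 14 enterocyte markers Krt20 and Lgals4 fell, by 0.79 and 0.67; Lgals4 lost its call without any 1 library and Krt20 without any except day 2 number 1. Also without the 8 samples 2 enterocyte markers fell.

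Secretory lineages showed few calls, beside 4.16% of all genes called. Of 17 goblet cell genes and 10 tuft cell genes none was called, with Muc2 at 0.29 and Dclk1 at 0.82 on the log2 scale, and without the 8 samples 1 goblet gene fell, Muc3. The tuft genes had a median log2 change of 0.86, with 9 above 0 and 1 below. Their list summed to 8.42, 13.2 and 16.2 CPM at day 0 and to 13.5, 14.2 and 14.4 CPM at day 2, so these sums overlapped. Of 17 Paneth and Reg genes 2 rose, Itln1 as given above and Ang4, an angiogenin of Paneth cells, from 2.53, 3.19 and 3.11 CPM to 12.2, 7.51 and 6.67 CPM (log2 1.58 ± 0.38), the latter lost without day 0 number 1 or day 2 number 1, and without the 8 samples 4 rose. Of 22 enteroendocrine genes Scg3 fell, by 0.98 ± 0.29, and was lost without any 1 library except day 0 number 1; without the 8 samples 1 fell and 1 rose.

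Ion transport and barrier genes had 1 rise, Aqp8, and 1 fall among 25. The fall was Cldn8, a claudin of tight junctions, from 29.1, 32.7 and 12.2 CPM to 1.86, 3.12 and 1.71 CPM (log2 -3.46 ± 0.82), lost without day 0 number 2 or day 2 number 1 or 3, and without the 8 samples 2 fell and 1 rose.

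Genes of defence and of stress were mostly not called, as were most of all genes tested (4.16% called). None of 25 interferon-stimulated genes was called, and without the 8 samples 4 fell and 1 rose. Of 25 Toll-like receptor and innate sensing genes Irak1 rose by 0.46 ± 0.14, and of 16 antigen presentation genes Psmb9, a subunit of the immunoproteasome, rose by 0.76 ± 0.19. Without the 8 samples 2 rose and 3 fell in the former list and 3 rose in the latter. Il18, a cytokine made by epithelium, fell from 20.3, 25.6 and 19.4 CPM to 8.23, 7.39 and 6.91 CPM (log2 -1.53 ± 0.33), and with Lcn2 made up the 2 falls among 18 inflammatory genes, to which the model without the 8 samples added 1 rise. Il18 kept its call with any 1 library left out, and Irak1 and Psmb9 did not.

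Ndrg1, a stress gene induced by low oxygen and by hormones, was at 425, 784 and 844 CPM at day 0 and at 97.4, 73.3 and 88.7 CPM at day 2. Its log2 change was -2.98 ± 0.29, and it shared with Fkbp5 the smallest adjusted p of the genes named, 1.7e-08 in edgeR. Of the 20 genes of the hypoxia list 2 fell, Ndrg1 and Ero1l, and 1 rose, Ankrd37. Ero1l fell by 0.79, lost without any 1 library, and Ankrd37 rose by 2.25 ± 0.45. The other 17, Vegfa at 0.22 and Car9 at 0.46 on the log2 scale among them, were not called. The median log2 change of the list was -0.33, with 14 of the 20 below 0, and without the 8 samples 7 fell and 1 rose.

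In the endoplasmic reticulum stress list, 1 of 21 fell, Herpud1, by 0.99 ± 0.20, and without the 8 samples 2 fell and 2 rose. None of 19 immediate early and heat shock genes was called, and without the 8 samples 2 rose and 1 fell. Of 18 circadian genes Per3 and Nr1d1 rose, by 0.89 ± 0.23 and 0.98 ± 0.26; Per3 was lost without any 1 library and Nr1d1 without 4 of them; without the 8 samples 4 rose and 3 fell. The labels do not give the hour of collection.

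A few imprinted growth genes were lower at day 2. Of 20 genes of the imprinted growth network, which are read from only 1 parental copy, 3 fell and none rose. The share of all genes that fell was 2.2%. Without the 8 samples 5 fell, against 6.77% of all genes. H19, a long noncoding RNA at chr7:142575529-142578143 of GRCm38, was at 4450, 4448 and 6036 CPM at day 0 and at 938, 748 and 969 CPM at day 2. The ages did not overlap (log2 -2.49 ± 0.58, edgeR adjusted p 0.00863, and 0.064 without day 2 number 2).

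Cdkn1c, an inhibitor of cell division, fell from 498, 561 and 870 CPM to 175, 189 and 178 CPM (log2 -1.83 ± 0.31), and Mirg, a noncoding RNA that hosts microRNAs, fell by 2.44 ± 0.66. Igf2, the fetal growth factor next to H19, was at 1192, 1115 and 1190 CPM at day 0 and at 558, 476 and 506 CPM at day 2, but with an adjusted p of 0.175 in edgeR it was not called, and without the 8 samples it was 0.00419. Cdkn1c kept its call with any 1 library left out and Mirg did not; the falls in the list numbered 1 without day 2 number 2, 3 without day 0 number 3 and 2 without any other.

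Among 20 genes of insulin-like growth factor, growth hormone and EGF signalling, 2 ligands of the EGF receptor fell and 1 gene rose, and without the 8 samples 4 fell and 2 rose. Tgfa went from 63.2, 94.3 and 96.5 CPM to 36.4, 35.9 and 30.8 CPM (log2 -1.3 ± 0.19, edgeR adjusted p 4.4e-05), and Ereg fell by 2.38 ± 0.61. Igfbp4, which holds insulin-like growth factors, rose by 1.13 ± 0.33. Tgfa kept its call with any 1 library left out, Igfbp4 lost it under each and Ereg under all except that without day 0 number 1. Igf1r and Egfr, the receptors, had log2 changes of 0.32 and 0.27.

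Of 23 fetal and adult gut regulators, Hnf4a rose and Afp and Klf4 fell, and without the 8 samples 3 rose and 3 fell. Afp, alpha-fetoprotein, made by fetal liver, yolk sac and gut, was at 446, 295 and 99.8 CPM at day 0 and at 27.2, 29.2 and 22.9 CPM at day 2 (log2 -3.41 ± 0.67, edgeR adjusted p 0.00193). Day 0 number 3 was the lowest of its age and still over 3 times every day 2 sample. Klf4, a factor of differentiated epithelium, fell by 1.08 ± 0.30, lost without day 0 number 2 or 3 or day 2 number 2 or 3. The fetal RNA-binding genes Lin28b, Igf2bp1, Igf2bp2 and Igf2bp3 had log2 changes between -0.37 and 0.43 and were not called.

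Some transcripts of blood cells were lower at day 2. Of 14 red blood cell markers tested 7 fell and none rose, against 2.2% of all genes falling. The list summed to 797, 1629 and 3092 CPM at day 0 and to 345, 325 and 502 CPM at day 2. Hbb-bs, adult beta globin, was at 266, 618 and 1133 CPM at day 0 and at 51.1, 59.5 and 128 CPM at day 2 (log2 -3.08 ± 0.75). The globin genes come in near-identical pairs, so their separate values are uncertain. The number of falls was 0 without day 0 number 3, day 2 number 1 or day 2 number 2, 3 without day 0 number 2, 4 without day 2 number 3 and 8 without day 0 number 1.

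Of 12 neutrophil markers 6 fell and 1 rose, against 2.2% and 1.96% of all genes. S100a8 was at 1.39, 3.92 and 8.83 CPM at day 0 and at 0.457, 0.287 and 0.181 CPM at day 2 (log2 -3.94 ± 0.84), and S100a9 fell by 3.87 ± 0.85. These are subunits of calprotectin, and both lost their call without day 0 number 3, as did 4 of the 6 falls. Without the 8 samples 7 neutrophil markers fell and 1 rose, and 8 red cell markers fell and 1 rose. Of all genes 6.77% fell and 5.7% rose in that model. Mmp9, a gelatinase that other cells also make, rose from 2.17, 4.65 and 5.10 CPM to 14.0, 20.2 and 21.8 CPM (log2 2.23 ± 0.50, edgeR adjusted p 0.054 without day 0 number 1). The neutrophil list summed to 17.6, 33.0 and 63.4 CPM at day 0 and to 22.2, 28.8 and 29.4 CPM at day 2. These sums overlapped between the ages, with day 0 number 1 below every day 2 sample, and Mmp9 made up most of each day 2 sum. With day 0 number 1 alone and without the 8 samples, no red cell or neutrophil marker fell.

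Of 13 liver markers 3 fell and 1 rose, and without the 8 samples 5 fell and 2 rose. Fga and Fgb, chains of fibrinogen, went from 23.9, 27.3 and 18.5 CPM to 0.772, 1.89 and 1.45, and from 12.4, 8.85 and 3.92 CPM to 0.0857, 0.595 and 0.524 (log2 -4.06 ± 1.02 and -4.32 ± 1.20), and Afp was the third. Serpina1a, alpha-1 antitrypsin, rose by 1.63 ± 0.40. Alb, albumin, the defining marker of liver, had a log2 change of -1.3 and was not called. Fga, Fgb and Serpina1a each lost their call without 3 or more of the libraries in turn, and the part of liver RNA was not tested.

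**Figure D3:**
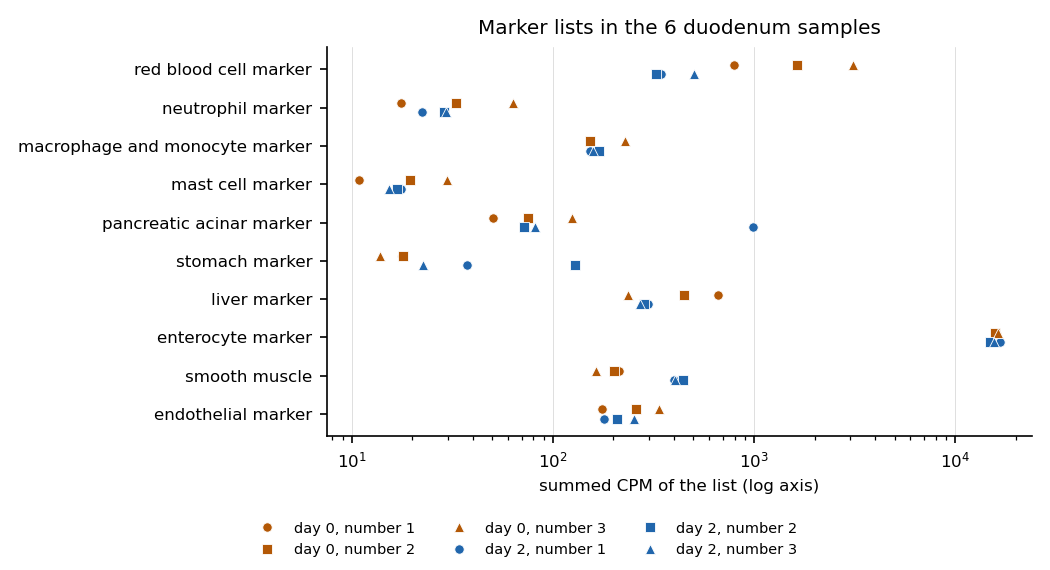
Summed CPM of 10 marker lists (y) on a log axis (x) in the 6 duodenum samples, orange for day 0 and blue for day 2, with the marker shape giving the sample number. Red blood cell markers are higher in all day 0 samples, pancreatic acinar markers stand apart in day 2 number 1 at 984 CPM, and enterocyte markers lie within 14850 to 16720 CPM.

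Of 21 pancreatic acinar markers 3 rose, Cela3b and Clps among them, and all 3 were highest in day 2 number 1. Without that library none of the 21 was called, with edgeR adjusted p-values of 0.94 for Cela3b and 0.86 for Clps, and without the 8 samples 10 rose. None of 11 stomach markers was called, and without the 8 samples 3 rose, each highest in day 2 number 2. None of 7 pancreatic islet and 9 adipose and mesentery markers was called, and without the 8 samples 2 of the latter fell.

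The wall beneath the epithelium had few calls, beside 4.16% of all genes called. None of 27 collagen and matrix genes, 25 genes of villus mesenchyme, Hedgehog and Wnt, or 14 endothelial markers was called, and without the 8 samples Thbs1 and Pdgfra fell and Wnt3 rose. Of 17 smooth muscle genes Mylk, the kinase that starts contraction, rose from 154, 128 and 87.4 CPM to 328, 362 and 317 CPM (log2 1.44 ± 0.27, edgeR adjusted p 0.0011). Myh11, Cnn1 and Lmod1 of the same list had log2 changes of 1.36, 1.32 and 1.22 and were not called. The median log2 change of the 17 was 0.35, with 12 above 0 and 5 below. The list summed to 163 to 214 CPM at day 0 and to 400 to 444 CPM at day 2. Mylk made up most of each of these sums. Of the 17, 1 rose in the model without the 8 samples.

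Of 18 genes of enteric neurons and glia S100b rose, from 0.778, 1.51 and 2.33 CPM to 15.8, 13.4 and 12.5 CPM (log2 3.16 ± 0.62, edgeR adjusted p 0.00158). The day 2 samples were all over 5 times the highest day 0 sample. The glial genes Sox10 and Erbb3 had log2 changes of -0.77 and 0.16. Of the 18, 1 rose in the model without the 8 samples. Mylk and S100b kept their call with any 1 library left out.

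Of the other blood cells, Trac, the T cell receptor alpha constant gene, rose by 1.46 ± 0.41 among 17 T cell and innate lymphocyte markers, with every other member not called, and lost its call without any 1 library. Without the 8 samples 2 T cell markers rose, 4 macrophage markers fell, and 1 mast cell marker rose and 2 fell. Ly6c2, a monocyte gene, fell by 2.71 ± 0.74 among 16 macrophage and monocyte markers and lost its call without any 1 library except day 0 number 1, and Tpsb2, a tryptase, fell among 9 mast cell markers. Tpsb2 was at 0, 1.73 and 5.08 CPM at day 0 and at 0.257, 0.0821 and 0.202 CPM at day 2, so the ages overlap and its direction depends on day 0 numbers 2 and 3. None of 12 B cell and plasma cell markers was called in either model.

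The ileum changed in the same direction for most of these genes. There, 541 genes (2.59%) were called between day 0 and day 2, and 240 genes were called in both regions, which is 27.6% of the duodenum's calls and 44.4% of the ileum's. All 240 had the same sign, and 805 of the 869 genes called in the duodenum had the same sign in the ileum. The share with the same sign was not counted over all genes tested, so the 805 cannot be judged as high or low. The test of the difference between the regions' changes called no gene in edgeR with all 48 samples, with 1463 at an unadjusted p under 0.05, and 344 (1.65%) without the 8 samples. DESeq2 called 42. Whether the duodenum and ileum samples of a number come from the same mouse is not given.

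Fkbp5 in the ileum fell by 4.27 on the log2 scale, from 77.6, 201 and 274.5 CPM, close to the duodenum's 4.24. Ndrg1 fell by 2.80 there, Sgk1 by 1.91, Zbtb16 by 4.96 and Prodh by 1.54, and all were called; the difference between the regions was called for Prodh alone of these 5, without the 8 samples (edgeR adjusted p 0.0312). Fdps fell by 2.45 in the ileum and by 1.37 in the duodenum, and H19 by 3.18 and 2.49, with the difference not called in either model. The rises of Itln1 (3.24 in the ileum) and Gsdmc4 (4.56) were also called there.

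Some changes of the duodenum had no call in the ileum. The log2 change of Gatm was -0.10 in the ileum against 1.54, that of Mgam -0.60 against -1.69, that of Slc7a15 -0.03 against -2.65, and that of Bcl2l15 -0.58 against -5.15. None of these differences was called with all 48 samples. Without the 8 samples, those of Gatm, Slc7a15 and Bcl2l15 were, with edgeR adjusted p-values of 0.00997, 0.00456 and 0.00166, and that of Scd2 was, at 0.032, with log2 changes of -5.66 in the duodenum and -3.26 in the ileum. For Mgam the value was 0.0522.

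The 5 genes with the smallest p for the difference were Ybx2, Slc27a1, Pitpnm3, 1700030K09Rik and Gkn3, with adjusted p-values from 0.104 to 0.198. Ybx2, an RNA-binding protein best known from germ cells, had log2 changes of 3.01 in the duodenum and -1.14 in the ileum. Slc27a1, a fatty acid transporter, had 0.73 and -0.35. Gkn3, a stomach gene, had 4.51 and -4.79, and its duodenum values were led by day 2 number 2, at 17.1 CPM against 3.60 and 2.36, the library with the most stomach markers.

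**Figure D4:**
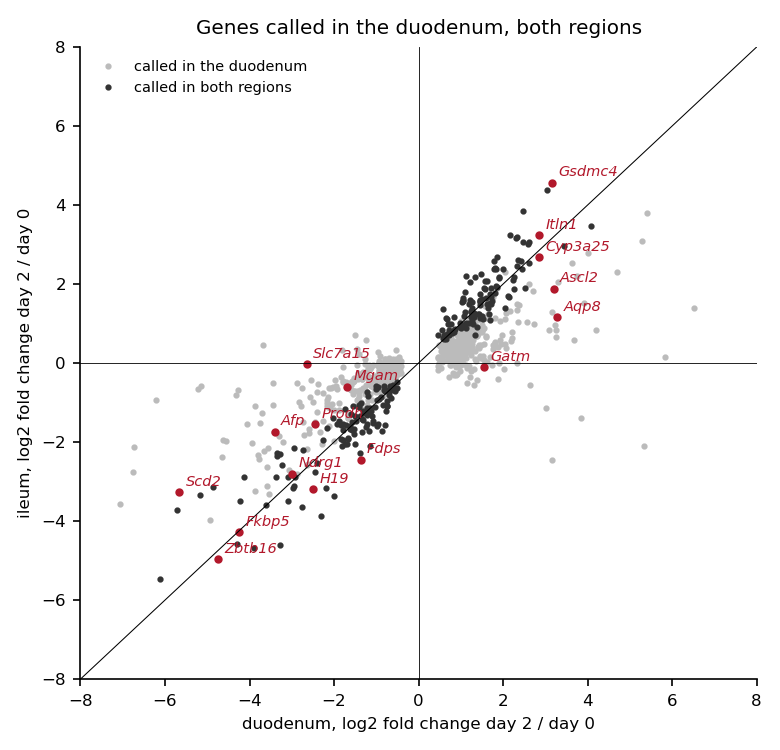
Log2 fold change from day 0 to day 2 in the duodenum (x) and ileum (y) of the genes called in the duodenum, black where also called in the ileum and red for named genes, with the line of equality; 1 called gene lies outside the range shown. The 240 genes called in both regions lie in the lower left and upper right of the plot, and Gatm, Mgam and Slc7a15 lie near the horizontal zero line.

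The levels of these genes in the duodenum at the later ages, given without a test, show which day 2 values were kept. They include day 4 and day 6 number 3, which are among the 8 samples, so the labels of these points are less certain. Fkbp5 stayed at 5.08 to 14.7 CPM in every sample from day 4 to week 2 and at week 4, and at week 3 it was at 168, 110 and 74.7 CPM. Sgk1 was likewise higher at week 3, at a mean of 383 ± 123 CPM (SD, n = 3), than at day 8, at 40.8 ± 5.6. The mean of H19 was lower at each later age, at 26.6 CPM at day 8 and 0.259 CPM at week 4.

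Scd2 was at means of 3.17 CPM at day 8 and 39.5 CPM at week 3, and day 6 number 3, at 62.5 CPM, stood apart from the other samples of its age at 2.71 and 3.92. Ascl2 was higher again at day 8, at 12.1 ± 1.0 CPM, as was Top2a, at 599.5 ± 26.4, against 3.25 and 210 CPM at day 2. Itln1 was at 696 ± 111 CPM at week 4, whereas Aqp8 was at 2.31 ± 0.67 CPM and Gatm at 1.39 ± 0.20 CPM at that age. Mgam, which fell by day 2, was at 4798 ± 1175 CPM at week 3.

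**Figure D5:**
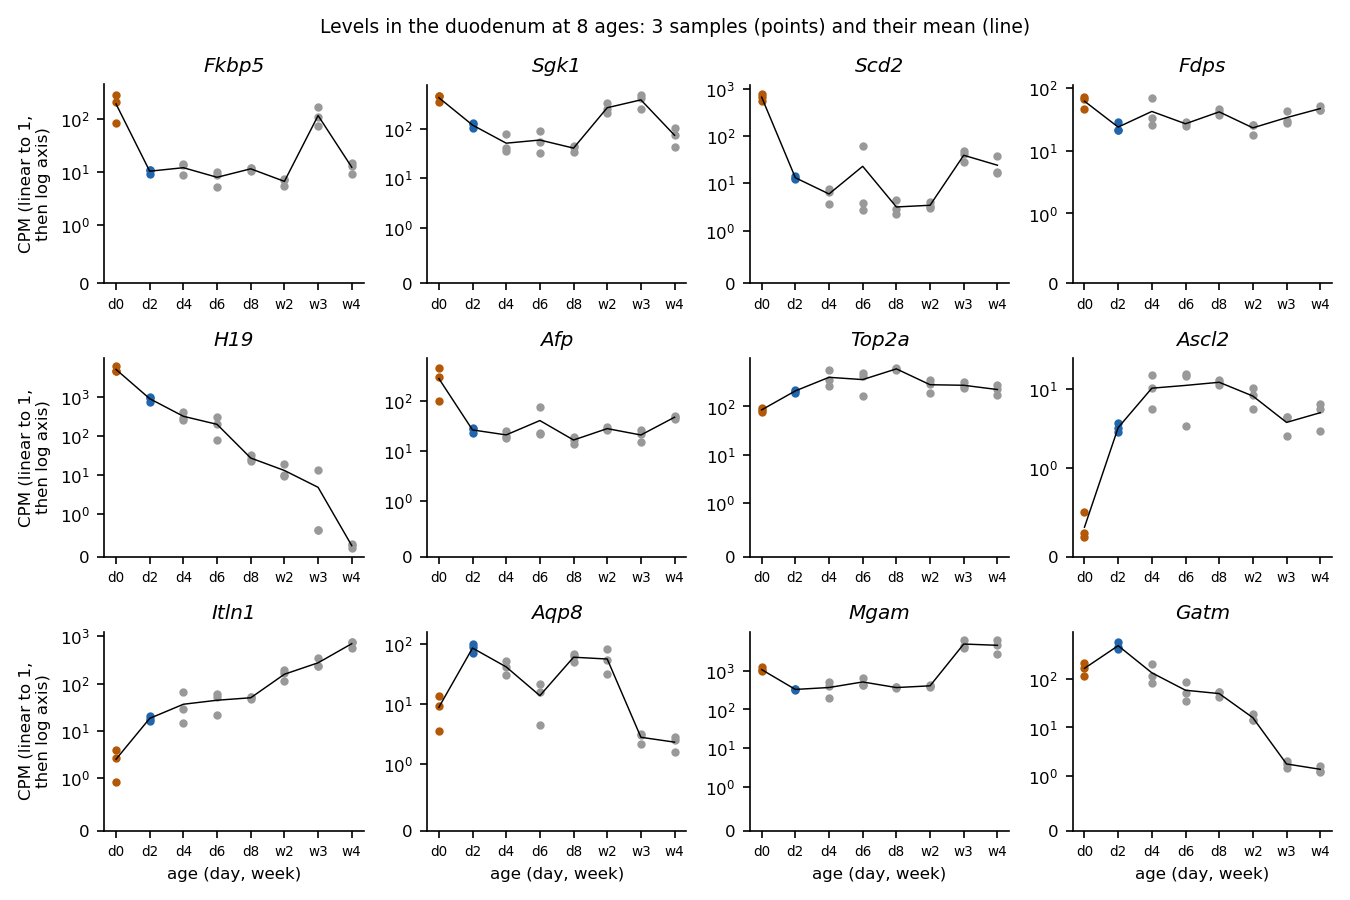
CPM (y, linear to 1 and then a log axis) of 12 genes in the duodenum at 8 ages (x, d for day and w for week), with 3 samples per age as points, orange for day 0 and blue for day 2, and their mean as a line. Fkbp5 is low from day 2 to week 2 and at 168, 110 and 74.7 CPM at week 3, and H19 is lower at each later age. The points of day 4 and of day 6 number 3 are among the 8 samples.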

How the data were processed

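Libraries of total RNA were run on an Illumina sequencer, per the labels' protocols. The authors deposited estimated counts per gene, summarised with tximport, per the file's name; the submitters' processing notes list STAR 2.6.1d, Salmon 0.14.2, DESeq2 1.30.1 and mm10, and the annotation release is not given in the sources used here. The values are whole numbers as deposited. The authors also deposited a normalized signal per region, used in limma alternatives and for gene symbols, which pair with 51106 of 54532 identifiers. Total counts of the 6 samples ran from 23173093 to 65042327.

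Estimated counts were fitted with edgeR 4.0.16 in R 4.3.3: filterByExpr on 16 groups, TMM scaling, a robust quasi-likelihood model with a mean per group over all 48 samples, and contrasts for the duodenum, the ileum and their difference. P-values were adjusted over 20901 genes, and an adjusted p under 0.05 is a call. CPM uses TMM-scaled library sizes; standard errors are the log2 change over the square root of F. Exact permutation of 3 against 3 samples cannot go below p = 0.1 and was not used. Counts were also simulated with 200 of 20901 genes changed. There, 42% of changes of 1 and 65% of changes of 2 on the log2 scale were recovered. Of the calls on simulated counts, 2.73% were false. These shares hold for the simulated counts alone. The spread between real samples differed between the ages compared, so the share of false calls in the real data is not known from them.

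Named genes were the 12 largest rises and falls without overlap at a mean of at least 2 CPM, the 5 largest in CPM each way, the 5 smallest p-values of the regional difference, and members of 50 gene lists. The comparison, lists and rule were chosen with earlier results of these data known. Alternatives were other scaling, filters, tools and sample sets, a replicate block and a sex index; the model without day 0 numbers 2 and 3 and the 8 samples together was added after seeing the data. The sample numbers of different ages are different mice. Loci are from GENCODE M21 (GRCm38), and promoters from RefSeq (GRCm38.p6). A few genes that met the rule are not reported here.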

Additional observations from a re-analysis of the deposited data

How the results depend on the processing

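The 869 calls between day 0 and day 2 became 517 without the low-count filter (243 up, 274 down), 3607 in a model of the 2 compared groups alone (1801 up, 1806 down), 2613 without the 8 samples (1192 up, 1421 down) and 2426 with the replicate block without the 8 samples (1117 up, 1309 down). They became 62 without the day 0 samples that contain both Xist and Ddx3y (17 up, 45 down), and 616 when the 8 samples were left out too (297 up, 319 down). With limma on the normalized signal they were 3117 (1807 up, 1310 down) with a pseudocount of 1 and 3047 (1804 up, 1243 down) with 0.1, and DESeq2 called 620 up. The rises made up 47.1% of calls, 58% and 59.2% with limma and 27.4% without day 0 numbers 2 and 3. Leaving out each sample in turn gave 336 to 603 calls, 127 to 233 up and 185 to 370 down. Size factors by relative log expression, a mean count of at least 10 and a sex index kept the count within 1.5 times, at 886, 936 and 868. The replicate block, with 743 calls, also did. Samples of a number correlated at -0.0542, 0.026 and 0.13 in their deviations, against means of 0.0355, -0.0234 and -0.0656 with the other numbers. With 3 samples per age these values cannot tell whether the numbers pair the samples, for example by litter. The 541 calls of the ileum became 344 without the filter, 933 with DESeq2, 1665 with only the compared groups, 2518 without the 8 samples, 2207 with the block as well, and 235 to 457 with a sample left out. The difference between regions had 0 calls, 42 with DESeq2, 354 with only the compared groups, 345 without the 8 samples and 219 with the block as well. Tpsb2 reversed, from -3.66 to 5.61 without day 0 numbers 2 and 3 and to the same value without the 8 samples too, since day 0 number 1 had no count. For the others the cause was not tested. Depth limits genes near 0, such as Klf15 and Fabp6.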
